A study of Oryctolagus cuniculus with 4 samples.

Results

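Genes named after the cluster of differentiation (CD) nomenclature encode surface molecules that are used to tell leukocytes and vascular cells apart. They were selected by name alone, as every feature called CD followed by a number and at most 1 letter, in upper case. This pattern matched 31 features, of which CD68, CD74 and CD36 were set aside, leaving 28 of 21139 genes. By their textbook use, 6 were grouped as T cell genes, 3 as B cell genes, 8 as myeloid genes, 2 as endothelial genes and 9 as broad genes found on many cell types. Over all sections, 9 of the 28 reached at least 20 unique molecular identifiers (UMIs, each standing for 1 captured mRNA molecule), 16 had 1 to 19, and CD28, CD226 and CD84 had none. Of 76 CD names listed by lineage, 28 had a feature of that name. CD4, CD8A and CD3E were among those without one, so they could not be counted.

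In resting skeletal muscle, capillaries run along every fiber, and macrophages sit mainly in the connective tissue between fibers and fascicles. CD34 is a sialomucin of capillary endothelium and also marks stromal progenitors of the interstitium, whereas CD93 is a glycoprotein of endothelial cells. CD14 is the lipopolysaccharide co-receptor of monocytes and macrophages, and CD44 is the receptor for hyaluronan, a component of the extracellular matrix. T and B cells are sparse in healthy muscle and are recognized by surface molecules such as CD2, CD6 and CD79B.

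The data were 4 Visium sections of the rabbit supraspinatus, a muscle of the rotator cuff, with 1 section per condition. One section came from fresh healthy muscle and one from healthy muscle stored frozen for 6 years. The other 2 came from muscles collected 2 and 16 weeks after the tendon had been cut (tenotomy), and these were also stored for 6 years. All muscles were snap frozen and came from skeletally mature female New Zealand White rabbits. By their labels, the stored healthy and the 16-week muscle were the right and left muscle of the same animal (14R and 14L), while the 2-week (6L) and fresh (211R) muscles carried other numbers. Animal and condition cannot be told apart for these 2 sections. In the comparison of stored with fresh muscle, animal, storage and the tenotomy on the opposite side of the stored muscle cannot be told apart.

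The sections held 1950 spots in fresh healthy, 2440 in stored healthy, 854 in 2-week and 1726 in 16-week muscle, with 7017798, 12536450, 4079313 and 4743522 UMIs in total. The median depth was 3589.5, 5195, 4588 and 2090 UMIs per spot in the same order. Mitochondrial genes took 49.3%, 49.2%, 33.8% and 34.6% of the UMIs. A spot covers several cells, so fewer cells of a type and less RNA per cell cannot be told apart. Intervals below are 95% intervals for counting error only and cover neither animals nor sections. With 1 section per condition no test between conditions was possible and no p-value is given. The spot barcodes come from 1 printed layout, and 512 of the 2931 different barcodes occurred in all 4 sections.

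The CD-named genes were rare transcripts, with CD34 the most abundant in each section. Together they had 488 UMIs in fresh healthy, 2015 in stored healthy, 716 in 2-week and 1453 in 16-week muscle, which was 69.5, 161, 176 and 306 UMIs per 1000000. CD34 (ENSOCUG00000003479) alone held 55.1%, 50.8%, 45.1% and 54.7% of them. The endothelial pair made up between 62.9% and 76.6% of these UMIs, the myeloid genes between 14.5% and 26.3%, and the broad genes between 7.58% and 11.7%. T and B cell genes each stayed at or below 1.23% in every section.

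CD34 was counted 269, 1024, 323 and 795 times in fresh healthy, stored healthy, 2-week and 16-week muscle, or 38.3, 81.7, 79.2 and 168 UMIs per 1000000. On section totals the 2-week to stored healthy ratio was 0.97 (0.853 to 1.10), and the 16-week level was 2.05 times (1.87 to 2.25) the stored healthy level. CD93 (ENSOCUG00000014812) was counted 105, 425, 127 and 181 times, or 15.0, 33.9, 31.1 and 38.2 per 1000000. Unlike CD34, CD93 had overlapping intervals in the 3 stored sections, and its ratio of 16-week to stored healthy muscle was 1.13 (0.941 to 1.34). These ratios depend on the denominator, since mitochondrial genes took a larger share of the totals in healthy muscle. Per 1000000 UMIs of other genes, CD34 had 75.6, 160.8, 119.6 and 256.3 and CD93 had 29.5, 66.8, 47.0 and 58.3 UMIs. On this scale the log2 ratio of the pair at 2 weeks against stored healthy muscle was -0.45 (-0.61 to -0.30). The ratio of the 16-week to stored healthy folds of both genes, which needs no scaling by section totals, was 1.82 (1.49 to 2.23) for CD34 over CD93.

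CD93 made up 28.1% (23.6% to 32.9%) of the UMIs of the pair in fresh healthy, 29.3% (27.0% to 31.7%) in stored healthy, 28.2% (24.1% to 32.6%) in 2-week and 18.5% (16.2% to 21.1%) in 16-week muscle. The first 3 sections shared nearly the same split, and the 16-week interval lay below the other 3. Of 12 further endothelial genes looked up, 6 had a feature, and they summed to 135, 225, 286 and 299 UMIs per 1000000. VWF, the von Willebrand factor of endothelium, held most of that sum, with 118, 209, 263 and 276. PECAM1, a junction protein, had 5.56, 6.06, 8.33 and 10.1, while the angiopoietin receptor gene TEK had 9.69, 7.58, 12.0 and 8.22 and did not share that order. CDH5, KDR and TIE1 had at most 13 UMIs in a section. The 6 fibroblast genes with a feature summed to 1405, 4291, 13477 and 8378 per 1000000, and this sum, unlike CD34, was highest at 2 weeks. DCN and LUM were highest at 16 weeks, as CD34 was. From 2 to 16 weeks none of these 6 was at least 2-fold higher and 3 were at least 2-fold lower (COL1A1, COL1A2 and COL3A1). DCN, encoding the proteoglycan decorin, went from 1364 to 2343 per 1000000 and LUM, encoding lumican, from 769 to 950.1, whereas FN1, encoding fibronectin, went from 865 to 792. The part of endothelial and stromal cells in the CD34 values was not tested.

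**Figure D1:**
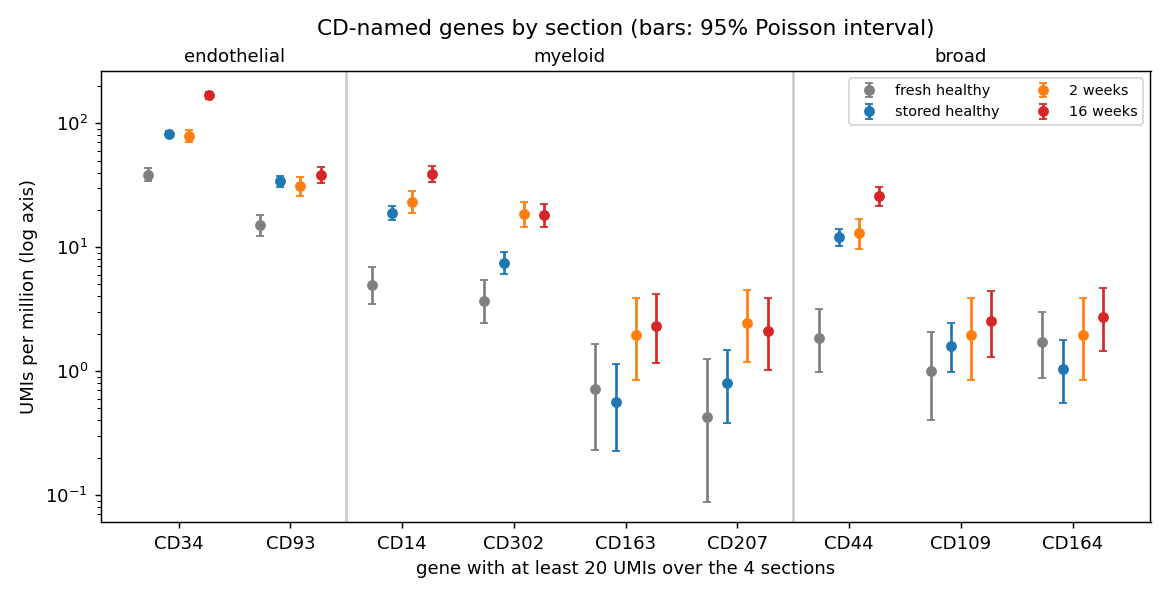
UMIs per 1000000 on a log axis for the 9 CD-named genes with at least 20 UMIs, in fresh healthy, stored healthy, 2-week and 16-week muscle; points are single sections and bars 95% Poisson intervals. CD34 rises to 168 per 1000000 at 16 weeks while CD93 stays between 31.1 and 38.2 in the 3 stored sections, and CD14 and CD44 are lowest in the fresh section.

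Among the myeloid genes, CD14 (ENSOCUG00000004218) and CD302, a C-type lectin receptor of monocytes and macrophages, carried most UMIs. CD14 was counted 35, 238, 95 and 184 times in fresh healthy, stored healthy, 2-week and 16-week muscle, or 4.99, 18.98, 23.3 and 38.8 per 1000000. CD302 (ENSOCUG00000016361) was counted 26, 94, 75 and 86 times, or 3.70, 7.50, 18.4 and 18.1 per 1000000. The genes differed in when they were higher. At 2 weeks CD302 was 2.46 times (1.79 to 3.36) its stored healthy level, while CD14 was 1.23 times (0.957 to 1.56), and per 1000000 UMIs of other than mitochondrial genes CD14 had 37.4 in stored healthy and 35.2 in 2-week muscle. The ratio of the folds of CD14 over CD302 was 0.501 (0.334 to 0.750). From 2 to 16 weeks CD302 had a ratio of 0.985 (0.715 to 1.36) and CD14 of 1.66 (1.29 to 2.16).

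CD163, the hemoglobin scavenger receptor of macrophages, had 5, 7, 8 and 11 UMIs. CD207, the Langerhans cell lectin langerin, had 3, 10, 10 and 10. Per 1000000 UMIs, CD163 had 0.712, 0.558, 1.96 and 2.32 and CD207 had 0.427, 0.798, 2.45 and 2.11. By these values both were higher in the 2 tenotomy sections than in the healthy ones, though on at most 11 UMIs per section. The 2-week CD163 interval (0.847 to 3.86) overlapped the fresh one (0.231 to 1.66). For CD207 the 16-week interval (1.01 to 3.88) overlapped the stored healthy one (0.383 to 1.47). On these totals the median gene was also higher than in stored healthy muscle, with log2 ratios of 0.63 at 2 and 0.93 at 16 weeks. CD163 reached 20 UMIs in none of the pairs of sections compared, so it was not called. Neither gene exceeded 2 UMIs in a spot. CD80, CD83, CD86 and CD101 had 1 to 3 UMIs each over all sections. Of the 12 macrophage genes looked up beside them, 11 had a feature, and these summed to 52.2, 170, 253 and 507 UMIs per 1000000 in fresh healthy, stored healthy, 2-week and 16-week muscle. The sum had the same order of sections as the myeloid CD-named genes, which had 10.1, 28.2, 46.1 and 61.6 per 1000000. Single genes of the macrophage list differed in this. CSF1R had that order, with 11.0, 31.6, 56.6 and 135.6, but C1QA had 8.98, 27.4, 13.7 and 96.6 and CD74 had 7.98, 29.8, 77.5 and 69.4. CD68 and CD74, set aside from the selection, are part of that macrophage list.

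Of the broad genes, CD44 (ENSOCUG00000000715) was counted 13, 151, 53 and 122 times, or 1.85, 12.0, 13.0 and 25.7 per 1000000. Its fresh healthy interval of 0.986 to 3.17 per 1000000 lay below those of the 3 stored sections. CD109, a co-receptor of transforming growth factor beta, had 7, 20, 8 and 12 UMIs, and the sialomucin CD164 had 12, 13, 8 and 13. The 16-week to stored healthy ratio was 1.61 (0.707 to 3.41) for CD109 and 2.64 (1.13 to 6.19) for CD164. CD200, a ligand that restrains myeloid cells, had 1, 3, 2 and 12 UMIs, and CD69, an early activation marker of lymphocytes, had 3, 2, 0 and 7. CD53, a tetraspanin of leukocytes, had 0, 1, 1 and 3 UMIs, and CD82 and CD274 had 3 and 2 UMIs over all sections.

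The T cell genes had 6, 19, 4 and 12 UMIs in fresh healthy, stored healthy, 2-week and 16-week muscle. CD6, a co-receptor of T cells, led with 4, 8, 1 and 6 UMIs, followed by CD96 with 0, 6, 0 and 4, the adhesion molecule CD2 with 0, 5, 2 and 1, and CD27 with 2, 0, 1 and 1. That was 0.855, 1.52, 0.981 and 2.53 UMIs per 1000000. The ratio to stored healthy muscle was 0.709 (0.160 to 1.95) at 2 weeks and 1.69 (0.739 to 3.62) at 16 weeks, and that of stored to fresh healthy muscle 1.68 (0.681 to 5.42). All 3 intervals held 1, so at this depth these comparisons showed no difference, and the 16-week and fresh sections were not compared. The sums leave out CD3E, CD4 and CD8A, which had no feature of that name. Of 6 further T cell genes with a feature, TCF7 was at 0 in all sections and IL7R had 1 UMI. LAT, an adaptor of T cell receptor signaling, had 136, 274, 141 and 179 UMIs and held nearly all of that list. PTPRC, the pan-leukocyte antigen CD45, had 0, 8, 11 and 8 UMIs.

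B cell genes were at the limit of detection, with 0, 2, 1 and 3 UMIs. No spot held more than 1 of them. The 0 UMIs of the fresh section allow up to 0.427 UMIs per 1000000 at a floor of 3 counts, and the exact Poisson interval ends at 0.526. Further B cell genes, MS4A1, PAX5, BLK and POU2AF1, were at 0 in all sections. The plasma cell genes JCHAIN and MZB1, the joining chain of immunoglobulins and a chaperone of their secretion, were counted more often, with 16, 5, 28 and 129 UMIs and with 0, 3, 5 and 28 UMIs.

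The share of spots with at least 1 UMI followed depth as well as level. Any CD-named gene was found in 19.03% of fresh healthy spots and in 44.9%, 48.0% and 46.3% of stored healthy, 2-week and 16-week spots. When each spot was thinned to 1000 UMIs, which left out 266, 93, 53 and 352 shallower spots, the shares were 6.95%, 13.4%, 16.9% and 28.3%. The 3 stored sections, which had looked alike, were then spread out, with the 16-week interval of 25.9% to 30.8% above the others. The endothelial pair was in 15.1%, 36.3%, 34.3% and 36.1% of spots and after thinning in 4.99%, 9.97%, 11.9% and 21.5%. The 2 genes of the pair differed in this. After thinning, CD34 was in 3.74%, 7.29%, 8.49% and 18.1% of spots and CD93 in 1.48%, 3.15%, 3.75% and 4.08%. CD93 had overlapping intervals in the 3 stored sections, so the higher 16-week share of the pair was that of CD34.

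Myeloid genes were in 3.44%, 11.3%, 16.9% and 13.2% of spots and after thinning in 1.31%, 2.09%, 4.37% and 7.42%. The highest share thus moved from the 2-week to the 16-week section. Broad genes were in 1.79%, 6.52%, 7.14% and 8.69% of spots, and after thinning in 0.594%, 1.62%, 1.25% and 3.64%. T cell genes were in 0.256%, 0.697%, 0.468% and 0.637% of spots and B cell genes in 0%, 0.082%, 0.117% and 0.174%. Over the 1950 fresh spots, 0 spots with a B cell gene leave an upper bound of 0.189% (Clopper-Pearson). RNA that spread between spots can add to such shares, and its part was not tested.

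**Figure D2:**
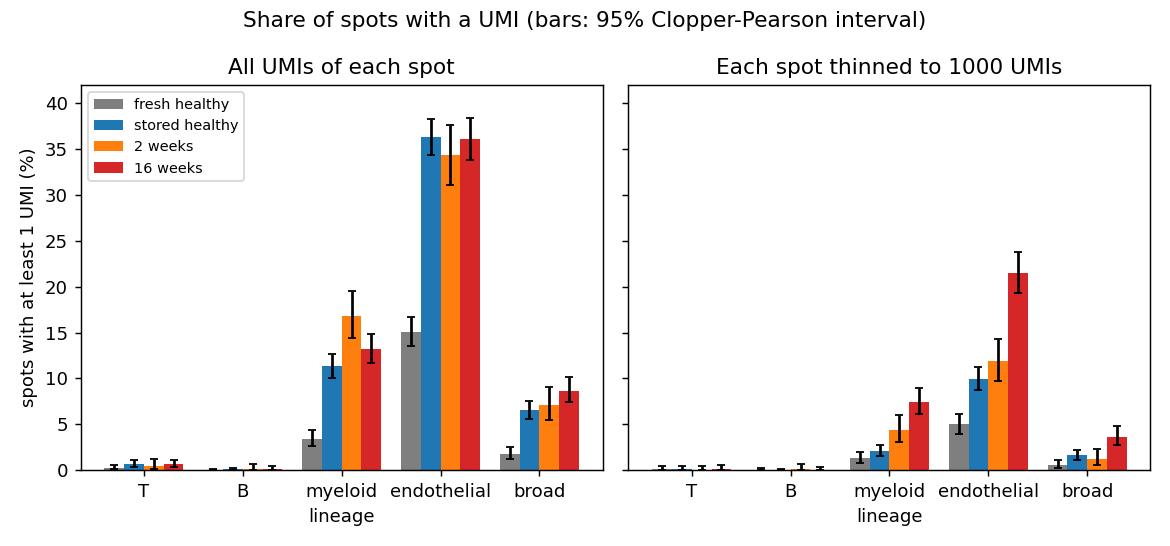
Percent of spots with at least 1 UMI of each lineage, from all UMIs (left) and after thinning each spot to 1000 UMIs (right); bars are single sections with 95% Clopper-Pearson intervals. The endothelial share (CD34 and CD93 together) is 36.3%, 34.3% and 36.1% in the 3 stored sections on the left and 9.97%, 11.9% and 21.5% on the right. After thinning, CD93 alone (not drawn) is at 3.15%, 3.75% and 4.08% in these sections.

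Against all genes, the sections differed in what they showed. Each gene with at least 20 UMIs in a pair of sections was compared by UMIs per section total with 0.5 UMI added, and called at a ratio of at least 2. The comparisons below with healthy muscle share the stored healthy section. At 16 weeks against stored healthy muscle, 6 of 8 CD-named genes were higher (CD14, CD207, CD302, CD34, CD44 and CD164), beside 46.9% of all 6025 genes. CD207 had 10 UMIs in each section, at the minimum, and a ratio of 2.64 (0.987 to 7.08), with 1 inside. CD164 had 13 UMIs in each. Without mitochondrial genes in the totals the count of genes called higher was 2 of 8, CD207 and CD164. The share of all genes on those totals is not given, so this count cannot be set against 46.9%. On section totals none was lower, beside 2.36% of all genes. The median log2 ratio was 1.07 for the CD-named genes and 0.93 for all genes. Relative to the median gene CD34 thus stood at 0.10, CD44 at 0.16 and CD14 at 0.10, while CD93 stood at -0.76, with 83.4% of all genes above it.

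At 2 weeks against stored healthy muscle, CD207 and CD302 were at least 2-fold higher, 2 of 8, beside 27.6% of all 5686 genes. CD207 had 10 UMIs in each section, at the minimum, and a ratio of 3.07 (1.15 to 8.23). Without mitochondrial genes in the totals CD207 alone was called, 1 of 8, and the share of all genes on those totals is not given. On section totals none was lower, beside 2.11%. The median was 0.32 for the CD-named genes and 0.63 for all genes. CD302 stood at 0.67 above the median gene, and CD34 and CD93 at -0.67 and -0.75. Between 16 and 2 weeks, CD34 was higher by 2.11 times (1.86 to 2.42), 1 of 8, beside 18.1% of all genes, and none was lower, beside 5.26%. The median gene moved by 0.32, so CD34 lay 0.76 above it. CD44, at 1.97 times (1.42 to 2.79), fell just under the line.

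The stored against the fresh healthy section gave the clearest separation from other genes. Here 4 of 7 CD-named genes were at least 2-fold higher, beside 9.36% of all 5756 genes, and none was lower, beside 11% of all genes. Their median log2 ratio was 1.09, while that of all genes was -0.11. CD44 was 6.28 times (3.69 to 12.5), CD14 3.76 times (2.66 to 5.60), CD93 2.26 times (1.83 to 2.83) and CD34 2.13 times (1.86 to 2.45) the fresh level. Only 1.53% of all genes lay above CD44 and 3.32% above CD14. CD302, at 2.00 times (1.30 to 3.26), was just under the line, and CD164 had a ratio of 0.605 (0.255 to 1.45).

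CD44 and CD14 moved further than CD34. The ratio of folds was 0.328 (0.168 to 0.590) for CD34 over CD44 and 0.560 (0.372 to 0.824) for CD34 over CD14. Collagen and macrophage genes were higher in the stored section as well. COL1A1, the main chain of type I collagen, had 18.2 UMIs per 1000000 in fresh and 90.1 in stored healthy muscle, COL3A1 had 424 and 1508, and CSF1R, a receptor that macrophages need for survival, had 10.97 and 31.6. Of 4 further endothelial genes with at least 20 UMIs, none was at least 2-fold higher, and their median log2 ratio was -0.11. VWF among them had 118 UMIs per 1000000 in fresh and 209 in stored healthy muscle. Of 3 smooth muscle and pericyte genes, none was at least 2-fold higher either, with a median of -0.26. The part of connective tissue content in the differences between stored and fresh muscle was not tested.

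Next, spots of a section were split by COL1A1. At least 1 COL1A1 UMI was found in 105 fresh healthy, 664 stored healthy, 565 2-week and 382 16-week spots, which was 5.38%, 27.2%, 66.2% and 22.1% of them. These shares depend on depth. With each spot thinned to 1000 UMIs, COL1A1 was in 27 of 1684, 181 of 2347, 258 of 801 and 177 of 1374 spots. The 16-week share was then above the stored healthy share. COL1A1-positive spots were deeper, with medians of 4776, 5819.5, 4876 and 2182 UMIs against 3512, 5028.5, 4010 and 2025.5 in the COL1A1-negative spots. Levels are therefore given per 10000 UMIs of the spot group.

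CD34 had 0.574, 1.30, 0.914 and 2.99 UMIs per 10000 in COL1A1-positive spots of fresh healthy, stored healthy, 2-week and 16-week muscle and 0.369, 0.594, 0.453 and 1.28 in negative spots. The ratios were 1.58 (1.02 to 2.30), 2.20 (1.94 to 2.49), 2.00 (1.48 to 2.79) and 2.34 (2.02 to 2.70), with every interval above 1. CD34 was therefore higher in COL1A1-positive spots of each section, though narrowly in fresh muscle. There, the 90 spots with 1 COL1A1 UMI had 0.392 per 10000 (0.228 to 0.628). The 10 spots with 2 and the 5 with at least 3 held 6 CD34 UMIs each. In COL1A1-negative spots the 16-week CD34 level was above that of stored healthy muscle too. Those spots differed in median depth, with 2025.5 UMIs at 16 weeks and 5028.5 in stored healthy muscle. Between these sections the median gene had a log2 ratio of 0.93. CD93 gave ratios of 1.42 (0.631 to 2.61), 1.49 (1.22 to 1.81), 1.52 (0.986 to 2.53) and 1.32 (0.930 to 1.83). Its interval excluded 1 in stored healthy muscle alone. The ratio of folds of CD34 over CD93 was 1.48 (1.17 to 1.87) in stored healthy and 1.78 (1.24 to 2.59) in 16-week muscle, and 1.30 (0.725 to 2.29) at 2 weeks.

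CD14 had ratios of 2.33 (0.651 to 5.59), 2.91 (2.24 to 3.81), 1.74 (1.03 to 3.27) and 2.26 (1.65 to 3.05) between COL1A1-positive and COL1A1-negative spots. CD44 had ratios of 3.05 (2.19 to 4.29) in stored healthy, 2.64 (1.21 to 8.09) in 2-week and 2.94 (2.02 to 4.25) in 16-week muscle, and its 13 UMIs in fresh muscle were too few. CD302 stood apart from both, with ratios of 0.759 (0.0126 to 3.15), 1.25 (0.789 to 1.92), 0.977 (0.585 to 1.75) and 0.783 (0.414 to 1.33), all with 1 inside. The ratio of folds of CD14 over CD302 was 2.35 (1.40 to 3.98) in stored healthy and 2.93 (1.54 to 5.84) in 16-week muscle, and 1.79 (0.801 to 4.06) at 2 weeks. CD109 had 15 UMIs in COL1A1-positive and 5 in COL1A1-negative spots of stored healthy muscle, a ratio of 6.17 (2.27 to 23.1).

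Of the CD-named genes with at least 20 UMIs in a section, 1 of 4 in fresh healthy, 4 of 6 in stored healthy, 2 of 5 in 2-week and 3 of 5 in 16-week muscle were at least 2-fold higher in COL1A1-positive spots. Of all genes, 8.42%, 11%, 9.02% and 12.6% were. The CD-named genes called were CD14 in fresh healthy and CD34 and CD44 in 2-week muscle. In stored healthy muscle they were CD14, CD34, CD44 and CD109, and at 16 weeks CD14, CD34 and CD44. The fresh call of CD14 rested on 5 UMIs in COL1A1-positive spots, and its interval of 0.651 to 5.59 held 1. None of the CD-named genes was at least 2-fold lower, beside 6.94%, 1.28%, 1.24% and 1.44% of all genes. The median log2 ratio of the CD-named genes was 0.58, 1.34, 0.80 and 1.17, and that of all genes 0.11, 0.30, 0.13 and 0.32. The T cell genes had 1, 4, 3 and 4 UMIs in COL1A1-positive and 5, 15, 1 and 8 in COL1A1-negative spots, too few for a direction.

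The level followed the number of COL1A1 UMIs as well. In spots with 0, 1, 2 and at least 3 COL1A1 UMIs, CD34 had 0.594, 1.01, 1.23 and 2.38 UMIs per 10000 in stored healthy muscle. At 2 weeks it had 0.453, 0.684, 0.637 and 1.19. At 16 weeks it had 1.28, 2.02, 3.63 and 6.62. CD34 was thus highest in the spots richest in COL1A1 in all 3 stored sections. CD44 went from 0.178 to 1.51 and CD14 from 0.301 to 1.26 at 16 weeks, whereas CD93 had 0.356, 0.470, 0.478 and 0.442.

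CD93 therefore took a smaller share of the pair where COL1A1 was high. At 16 weeks it fell from 21.7% (18.5% to 25.3%) in spots without COL1A1 to 6.25% (2.55% to 12.5%) in the 66 spots with at least 3 COL1A1 UMIs, where 7 CD93 and 105 CD34 UMIs were counted. In stored healthy muscle it was 33.1% (29.8% to 36.6%) and 18.8% (13.8% to 24.7%). At 2 weeks it was 32.9% (22.3% to 44.9%) and 25.9% (20.3% to 32.1%), which overlapped.

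**Figure D3:**
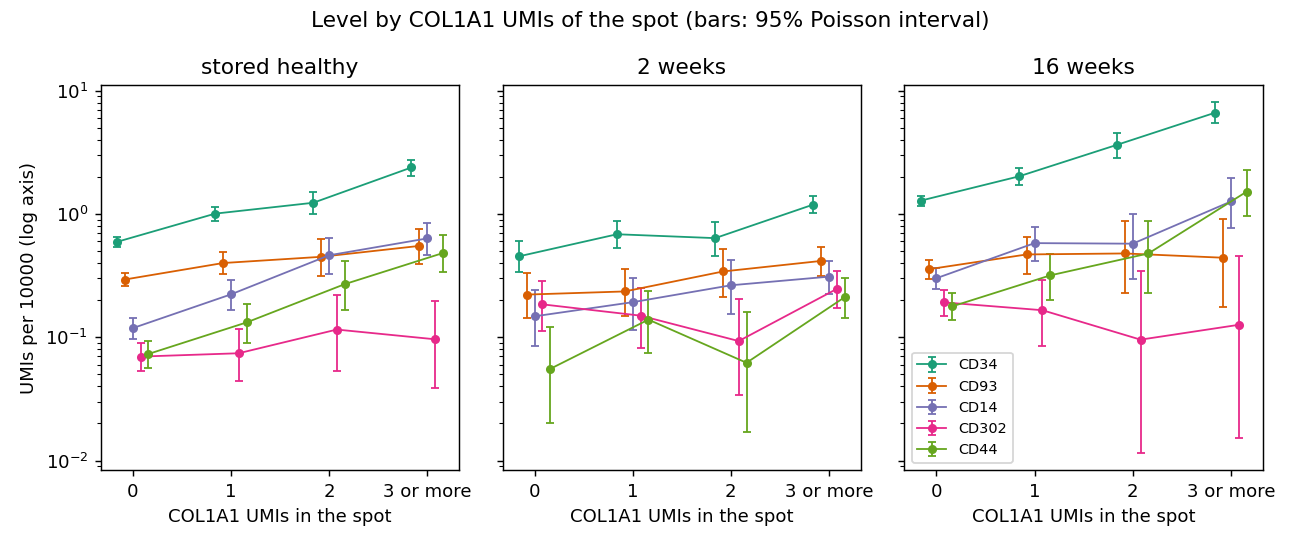
UMIs per 10000 (log axis) of CD34, CD93, CD14, CD302 and CD44 in spots with 0, 1, 2 or at least 3 COL1A1 UMIs in the 3 stored sections; bars are 95% Poisson intervals. At 16 weeks CD34 climbs from 1.28 to 6.62 while CD93 stays between 0.356 and 0.478.

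**Figure D4:**
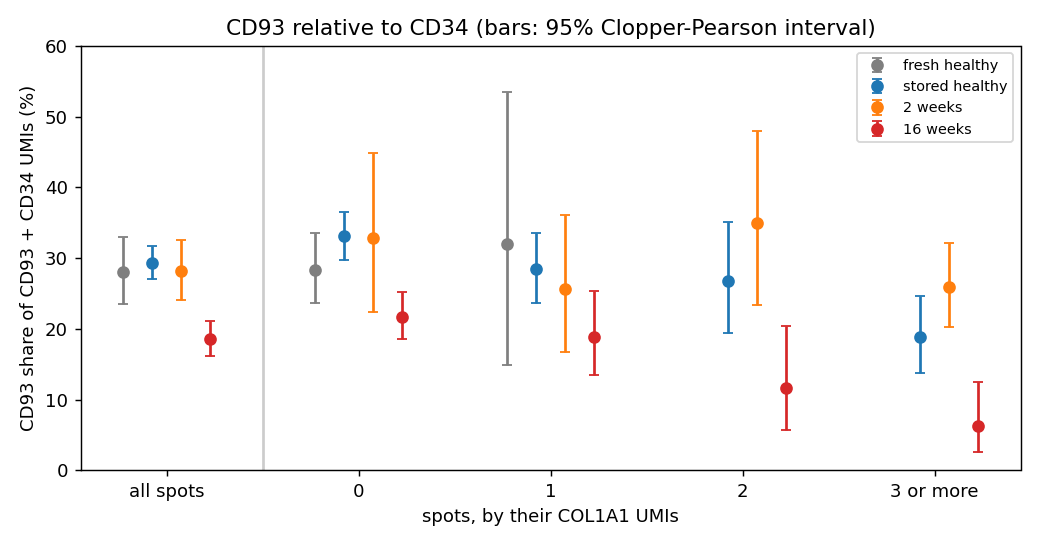
CD93 as a percent of CD93 and CD34 UMIs, over all spots and by the COL1A1 UMIs of the spot, for groups with at least 20 spots and 20 UMIs; bars are 95% Clopper-Pearson intervals. The 16-week section lies at 18.5% over all spots and falls to 6.25% at 3 or more COL1A1 UMIs.

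Mitochondrial genes took 45.5% of UMIs in COL1A1-positive and 50.9% in COL1A1-negative spots of stored healthy muscle, 32.7% and 36.9% at 2 weeks and 28.0% and 36.6% at 16 weeks. The ratios were therefore recomputed within terciles of the spots of each section by the share of UMIs from mitochondrial genes and 4 muscle fiber genes (MYH1, MYH7, MB and MYBPC1). This split was chosen after seeing the data. At 16 weeks 42.2% of spots in the lowest tercile but 10.8% in the highest were COL1A1-positive. CD34 had 4.08, 1.2 and 0.762 UMIs per 10000 from the lowest to the highest tercile of muscle share at 16 weeks, and 1.42, 0.549 and 0.403 in stored healthy muscle. The CD34 level was thus highest where these genes took the smallest share. Part of this follows from the scaling, since these genes are counted in the UMIs that CD34 is divided by. Levels per UMI of the remaining genes are not given by tercile.

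Pooled within terciles, the COL1A1 ratios were smaller. For CD34 they were 1.39, 1.54, 1.61 and 1.40 in fresh healthy, stored healthy, 2-week and 16-week muscle, and for CD14 1.91, 1.94, 1.33 and 1.23. For CD44 they were 1.92, 2.57 and 1.83 in the 3 stored sections, so that in stored healthy and 16-week muscle they moved down as those of CD34 did. CD93 was at 1.27, 1.36 and 1.02 and CD302 at 0.987, 0.867 and 0.511 there. In the lowest tercile at 16 weeks, CD44 had a ratio of 2.50 (1.51 to 4.39), CD34 of 1.39 (1.15 to 1.68) and CD14 of 1.17 (0.799 to 1.73). In the other terciles at 16 weeks the CD44 ratio was 1.15 (0.317 to 2.93) in the middle and 0.423 (0.00698 to 1.78) in the highest, with 1 inside both intervals. In the middle tercile the CD34 ratio was 1.58 (1.18 to 2.10) in stored healthy, 2.12 (1.28 to 3.89) in 2-week and 1.60 (1.10 to 2.26) in 16-week muscle. These 3 intervals lay above 1, while that of fresh muscle, 0.757 (0.219 to 1.68), held 1. In the highest tercile the CD34 ratio was 0.982 (0.591 to 1.51) in stored healthy, 0.766 (0.433 to 1.39) in 2-week and 1.22 (0.768 to 1.83) in 16-week muscle, all with 1 inside.

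**Figure D5:**
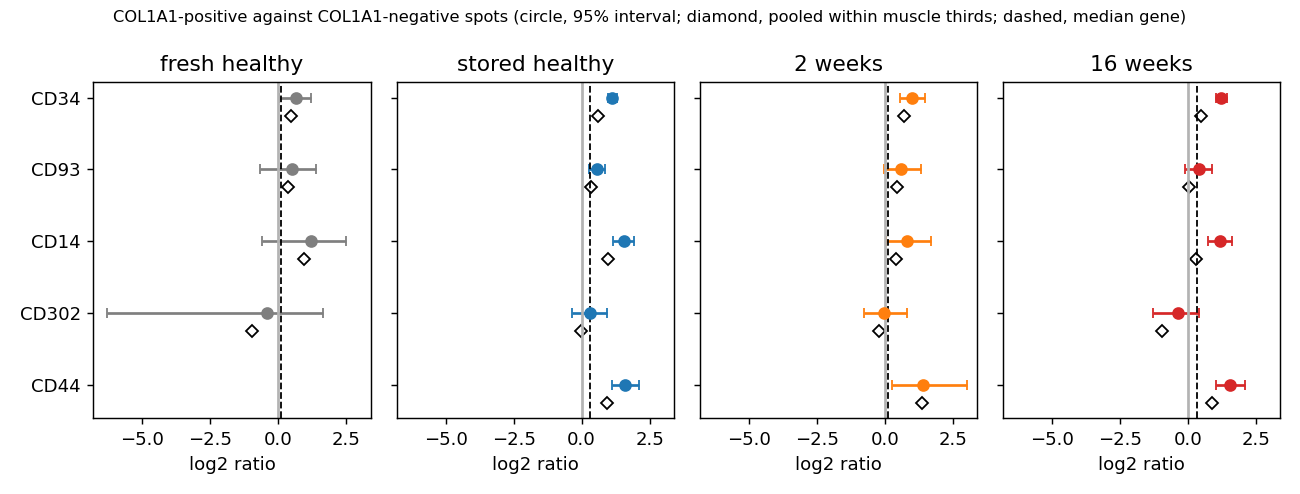
Log2 ratio of COL1A1-positive to COL1A1-negative spots per gene and section (circles, 95% exact conditional intervals), pooled within terciles of muscle share (diamonds) and for the median of all genes (dashed line); genes under 20 UMIs in a section are not drawn. CD34, CD14 and CD44 lie right of the dashed line in the stored sections, the intervals of CD302 include 0, and most diamonds lie closer to 0 than their circles.

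Across spots, the rank correlation with COL1A1 was weak. Spearman's rho of CD34 with COL1A1 was 0.075 over 1950 fresh healthy, 0.235 over 2440 stored healthy, 0.265 over 854 2-week and 0.229 over 1726 16-week spots. After thinning to 1000 UMIs it was 0.025, 0.043, 0.112 and 0.178. Spots share a section and differ in depth, and most hold 0 UMIs of either gene, so these are descriptions of sparse counts.

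CD44 was higher in spots with CD14, though not with CD14 alone. Spots with CD14 had 0.326 CD44 UMIs per 10000 against 0.0988 in spots without it in stored healthy muscle, a ratio of 3.33 (2.23 to 4.79), and the ratio was 3.34 (1.68 to 6.10) at 2 and 2.40 (1.46 to 3.71) at 16 weeks. With CD34, CD93 or CD302 instead, stored healthy ratios were 2.32 (1.67 to 3.24), 2.31 (1.59 to 3.27) and 2.69 (1.46 to 4.41). At 2 weeks they were 1.15 (0.607 to 2.07), 1.37 (0.563 to 2.72) and 1.73 (0.672 to 3.54). At 16 weeks they were 1.86 (1.28 to 2.70), 1.46 (0.829 to 2.35) and 1.31 (0.435 to 2.72). After thinning to 1000 UMIs, Spearman's rho of CD14 with CD44 was 0.051, -0.013 and 0.033 in the stored sections. CD93 in spots with and without CD34 had ratios of 1.68 (1.38 to 2.04) in stored healthy, 2.11 (1.47 to 3.04) in 2-week and 1.10 (0.803 to 1.49) in 16-week muscle. By these ratios the endothelial pair shared spots less clearly at 16 weeks, though the difference between sections was not tested. With each spot thinned to 1000 UMIs, Spearman's rho of CD34 with CD93 was 0.052 in stored healthy, 0.010 in 2-week and -0.0043 in 16-week muscle. On that measure the 2-week section was close to the 16-week section.

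Single spots held up to 13 UMIs of a gene. The spot with the most CD34 lay in stored healthy muscle with 13 CD34 UMIs, 5 of COL1A1 and 8 of VWF. The spot with the most CD44, also in stored healthy muscle, had 7 CD44 and 5 CD14 UMIs together with 69 of CD68 and 21 of SPP1, the secreted matrix protein osteopontin. The spot with the most CD93 was in 2-week muscle, with 7 CD93, 3 CD34 and 138 COL1A1 UMIs. In fresh muscle, the spot richest in CD34 had 6 CD34 UMIs with 98 of ACTA2 and 37 of MYH11, both contractile genes of smooth muscle, and none of COL1A1. These spots were picked for their high counts and are described only.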

How the data were processed

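UMIs per gene and spot were measured with 10x Genomics Visium in 4 sections. The authors counted them against OryCun2.0, using Space Ranger 1.2.0, and deposited raw counts of spots under tissue, without normalization. All 6970 spots and 21139 genes were used as deposited. Spots are small regions, so doublets were not called. The genes and lists were chosen with earlier results of these data known. Every CD-named gene is counted, those with at least 20 UMIs in the sections compared are given with values, and the others with their sums or within the sum of their group. Values of some single genes are not reported here.

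Sums carry exact Poisson, shares Clopper-Pearson and ratios exact conditional intervals at 95% (Python 3.11.15, scipy 1.17.1, numpy 2.4.6). Ratios of folds are conditional odds ratios. Log2 ratios have 0.5 UMI added. Spots were thinned without replacement to 1000 or 2000 UMIs. The 37 mitochondrial genes were recognized by neighboring identifiers. The ratio and interval code was tested on simulated data, where the share of intervals that held the true value first fell short of the pass mark, which was then loosened. Alternatives were another denominator, scaling, minimum, depth or gene, and leaving out the leading spot or gene. Splits by COL3A1 and by muscle share were added after seeing the data. Totals per section between 4079313 and 12536450 UMIs set the precision.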

Additional observations from a re-analysis of the deposited data

How the results depend on the processing

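With 1 section per condition, depth limits T and B cell genes most, and no paired analysis was possible because there is no replicate. Values are log2 ratios unless given as percent or counts, and where one changed the cause was not tested beyond what the setting itself removes. Leaving out the leading spot or spots under 500 UMIs moved none of the lineage ratios rerun beyond its interval. Adding 1 UMI in place of 0.5 was run for the counts of genes past 2-fold between sections and changed none of them.

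Scaled by the median gene, the ratios of myeloid, endothelial and broad genes were 0.082, -0.70 and -0.40 for 2 weeks against stored healthy and 0.19, -0.10 and 0.29 for 16 weeks against stored healthy. For 16 against 2 weeks the myeloid ratio was then 0.092 and the endothelial 0.57. Without mitochondrial genes, myeloid and endothelial ratios were 0.33 and -0.45 at 2 weeks, and myeloid, endothelial and broad ratios 0.76, 0.47 and 0.86 at 16 weeks, against stored healthy. The number of CD-named genes at least 2-fold higher was then 1 at 2 weeks and 2 at 16 weeks against stored healthy, and 1 by COL1A1 at 2 weeks. With a minimum of 50 UMIs it was 1 at 2 weeks against stored healthy and 0 by COL1A1 in fresh muscle. For these counts the shares of all genes under the same setting are not given.

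Without its leading gene (CD14, CD34 or CD44), the myeloid ratio was 1.31 for 2 weeks against stored healthy, 0.82 for stored against fresh and -0.0030 for 16 against 2 weeks. The endothelial ratio was 0.17 for 16 weeks against stored healthy and 0.29 against 2 weeks. The broad ratio was 1.63 for 16 weeks against stored healthy, and for stored against fresh it turned to -0.077. By COL1A1, the same step gave myeloid, endothelial and broad ratios of 0.55, 0.57 and 0.78 in stored healthy and -0.28, 0.40 and 0.037 in 16-week muscle, and a broad ratio of 3.89 at 2 weeks. CD44 held all 6 broad UMIs of the COL1A1-negative spots at 2 weeks, so without it that ratio rests on the 0.5 UMI added.

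With at least 3 COL1A1 UMIs, myeloid, endothelial and broad ratios were 1.99, 1.73 and 2.40 in stored healthy and 1.51, 2.11 and 2.57 in 16-week muscle. Pooled within terciles of muscle share they were 0.70, 0.55 and 0.85 in stored healthy and -0.067, 0.41 and 0.52 in 16-week muscle. After thinning, the endothelial ratio was 1.17 in fresh, 0.61 in stored healthy and 1.27 in 16-week muscle, and the broad ratio 0.56 and 2.18 in the latter 2. The fresh value rested on 27 COL1A1-positive spots, of which 3 held an endothelial UMI, against 69 of 177 at 16 weeks.

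COL3A1 in place of COL1A1 was chosen after seeing the data. At least 1 UMI of it marked 56.5%, 91.3%, 98.4% and 90.3% of spots, leaving 14 negative spots at 2 weeks, where the broad ratio turned to -1.55 and the myeloid was -0.20. In stored healthy muscle the myeloid and broad ratios were then 1.63 and 0.16, and at 16 weeks the endothelial and broad ratios 0.82 and 0.18. Split at the median COL3A1 level, myeloid and endothelial ratios were 1.57 and 1.31 in stored healthy and 1.79 and 1.76 in 16-week muscle, and the broad ratio was 0.75 at 2 weeks.

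Thinned to 1000 UMIs, spots with myeloid genes were 1.31%, 2.09%, 4.37% and 7.42% in fresh healthy, stored healthy, 2-week and 16-week muscle, with endothelial genes 4.99%, 9.97%, 11.9% and 21.5%, and with broad genes 0.594%, 1.62%, 1.25% and 3.64%. T cell genes were in 0.170%, 0% and 0.146% of spots in the 3 stored sections and B cell genes in 0% in stored healthy muscle. Thinned to 2000 UMIs, the shares were 1.84%, 4.10%, 8.62% and 9.23% for myeloid, 9.54%, 18.3%, 19.1% and 28.0% for endothelial and 1.16%, 3.04%, 2.61% and 6.98% for broad genes, with T cell genes in 0.397% of stored healthy spots and B cell genes in 0% at 2 and 16 weeks.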
